A study of Homo sapiens with 8 samples.

Results

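The screen asked which genes set PRMT5 protein levels in platinum-resistant COV362 cells, an established line of high-grade serous ovarian cancer. Of the 10429 sgRNAs in the library, 98 targeted genes of the cyclic nucleotide phosphodiesterases and are described here. They were taken as every sgRNA whose gene symbol starts with PDE and a digit, which gave 14 genes with 7 sgRNAs each. Both sorted populations carried Cas9 and the same sgRNA library, and the labels give their genotype as WT. After 2 weeks of culture, cells were stained for PRMT5 and sorted into the 20% with the highest signal (PRMT5 high, 4 libraries) and the 20% with the lowest (PRMT5 low, 4 libraries). The 4 replicates came from 1 transduced pool that was divided afterwards, so their spread leaves out the transduction itself.

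Phosphodiesterases open the cyclic phosphate ring of cAMP and cGMP and thereby end the signals that these second messengers carry to protein kinases A and G, to exchange factors and to ion channels. The families differ in which nucleotide they cleave. PDE4, PDE7 and PDE8 are selective for cAMP, PDE5 and PDE6 are selective for cGMP, and PDE3, PDE10 and PDE11 hydrolyse both. The library covered the cAMP-selective enzymes with 8 genes and 56 sgRNAs, the cGMP-selective enzymes with 2 genes and 14 sgRNAs, and the dual-specificity enzymes with 4 genes and 28 sgRNAs. Which exons the sgRNAs cut, and whether any match a paralog, was not analysed here.

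Abundance is given as CPM, sgRNA reads scaled to a fixed library total, which the authors averaged over the 4 libraries of a population. The log2 ratio of an sgRNA is log2 of CPM + 1 in PRMT5 low over CPM + 1 in PRMT5 high. A positive value thus marks more copies in PRMT5 low cells, so that carrying the sgRNA went with less PRMT5 stain. Loss of the target is not measured by these counts. The deposited columns call the populations a and b, and they are read here as high and low after the signs in the study's legend, since its methods state the opposite signs. The ± after a ratio is its standard error from the authors' variances over the libraries, called library error below. For 22 of the 98 sgRNAs the variance in 1 population or the other allowed for read counting only. SDs are over the 7 sgRNAs of a gene, which share a target and are not replicates. The p-values are one-sided, from CB2's beta-binomial test for an sgRNA and Fisher's method for a gene.

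Genes were called at a p under 0.01 together with a mean of more than 0.25 in size, the limits that the study's legend gives for sgRNAs. None of the 14 phosphodiesterase genes met both. Over all 1420 genes, 0.845% passed toward PRMT5 high and 0.704% toward PRMT5 low. For genes toward PRMT5 low the study's methods set a stricter p limit of 0.001, which 0.141% of all genes met with the same limit on the mean, and again no phosphodiesterase gene did. At an unadjusted p under 0.05 there was 1 member in each direction. *PDE6C*, the catalytic subunit of the cone photoreceptor enzyme, lay toward PRMT5 low (Fisher's method, p = 0.0145, adjusted p = 0.354 over all genes), and *PDE7A*, a cAMP-selective enzyme of high affinity, toward PRMT5 high (Fisher's method, p = 0.0110, adjusted p = 0.390). The same limit was met by 8.59% of all genes toward PRMT5 low and by 9.30% toward PRMT5 high, so 1 of 14 in each direction is near the background. Reads of the phosphodiesterase sgRNAs were estimated from their fractions and the recovered read totals. The estimates ran from 137 to 5064 over the PRMT5 high libraries and from 168 to 6394 over the PRMT5 low libraries.

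The gene means ran from -0.19 for *PDE7A* to 0.25 for *PDE6C*. Their median was 0.036, beside -0.0033 over all genes, and their SD over genes was 0.11, beside 0.12. In 9 of the 14 genes the mean was above 0, as it was in 48.5% of all genes. Of the sgRNAs, 56 of 98 (57.1%) had a ratio above 0, beside 49.9% of all sgRNAs. The 500 control sgRNAs averaged 0.019, and 7 of the 14 gene means lay above that value, as did 41.9% of all gene means. The library error of a gene's mean had a median of 0.12 in this family, and most of the means were no farther from 0 than their error.

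*PDE6C* had the highest mean, 0.25 ± 0.14 (SD 0.20), a 1.19-fold higher abundance in PRMT5 low cells, and ranked 29 of 1420 genes in that direction. All 7 of its sgRNAs were more abundant in PRMT5 low than in PRMT5 high cells. The gene spans 93612537 to 93666010 on chromosome 10 (GRCh38). The clearest difference was that of PDE6C_6, which stood at 94.5 CPM in PRMT5 high and 139 CPM in PRMT5 low, a log2 ratio of 0.55 ± 0.12 (CB2's beta-binomial test, p = 0.00293, adjusted p = 0.334 over all sgRNAs). PDE6C_2 stood at 27.8 CPM and 40.1 CPM, with a ratio of 0.51 ± 0.29. The other 5 sgRNAs had ratios between 0.081 and 0.21, each smaller than its own library error. PDE6C_1 went from 98.4 CPM in PRMT5 high to 104 CPM in PRMT5 low, PDE6C_3 from 170 to 184 CPM, PDE6C_4 from 48.6 to 55.3 CPM and PDE6C_7 from 62.9 to 67.5 CPM. PDE6C_5 was the scarcest phosphodiesterase sgRNA in PRMT5 high cells, at 8.46 CPM there and 9.92 CPM in PRMT5 low, and its error of 0.68 was more than its ratio of 0.21. The gene thus combined a uniform direction with 1 sgRNA that held most of the evidence. Without PDE6C_6 the mean was 0.20 and the p from Fisher's method 0.179, whereas without PDE6C_7 they were 0.28 and 0.00994, which passes the legend's limits.

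The mean of *PDE6C* was just past the limit of 0.25, and only its p kept it out. With Stouffer's method in place of Fisher's, the p was 0.00897 and *PDE6C* was the 1 phosphodiesterase gene past the legend's limits, as were 0.915% of all genes in this direction, but it stayed short of the 0.001 of the methods. With a p limit of 0.05 and the same limit on the mean, it passed as well, along with 1.48% of all genes.

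*PDE5A*, the other cGMP-selective gene and the target of sildenafil, lay at 0 within its error. Its mean was -0.0011 ± 0.12 (SD 0.18), and 4 of its 7 sgRNAs lay above 0. Its ratios ran from -0.23 ± 0.32 for PDE5A_7, at 99.4 CPM in PRMT5 high and 84.7 CPM in PRMT5 low, to 0.22 ± 0.37 for PDE5A_1, at 32.0 and 37.6 CPM. Neither end of this range was past its library error. The spread over the sgRNAs of *PDE5A* was the smallest of the 14 genes and 0.57 times the spread that the library errors alone would give. *PDE6C* minus *PDE5A* was 0.25 ± 0.18, with an approximate 95% interval of -0.11 to 0.61, which includes 0.

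*PDE7A* had the lowest mean of the family, -0.19 ± 0.085 (SD 0.41), a 1.14-fold higher abundance in PRMT5 high cells, and ranked 80 of 1420 genes in that direction. The gene spans 65714334 to 65842064 on chromosome 8 (GRCh38). Its sgRNAs pointed both ways, 5 toward PRMT5 high and 2 toward PRMT5 low. PDE7A_7 stood at 57.9 CPM in PRMT5 high and 35.2 CPM in PRMT5 low, a ratio of -0.70 ± 0.20 (CB2's beta-binomial test, p = 0.00403, adjusted p = 0.408). PDE7A_5 had 158 and 123 CPM, a ratio of -0.35 ± 0.14 (CB2's beta-binomial test, p = 0.0425), and PDE7A_2 had 124 and 88.7 CPM, a ratio of -0.48 ± 0.20 (CB2's beta-binomial test, p = 0.0596). Against these, PDE7A_1 stood higher in PRMT5 low cells, at 101 CPM compared with 70.8 CPM in PRMT5 high, a ratio of 0.50 ± 0.22 (CB2's beta-binomial test, p = 0.0413). PDE7A_3 had 83.3 CPM in PRMT5 high and 95.3 CPM in PRMT5 low, a ratio of 0.19 ± 0.10. PDE7A_4, with -0.16 ± 0.22, and PDE7A_6, with -0.31 ± 0.39, were within their errors.

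sgRNAs against the same gene therefore disagreed in *PDE7A* by more than their estimated library errors. The SD over its sgRNAs was 1.83 times the spread given by the library errors, the highest such ratio of the 14 genes, whose median was 0.78, and 0.97 over all genes. That ratio may be too high for *PDE7A*. The variance of PDE7A_2 and PDE7A_5 in PRMT5 low, and of PDE7A_3 in PRMT5 high, allowed for read counting but no further spread between libraries. Without PDE7A_7 the mean of *PDE7A* was -0.10 (p = 0.122 by Fisher's method), and without PDE7A_1 it was -0.30 (p = 0.00428 by Fisher's method), which passes the legend's limits. *PDE7B*, its paralog, averaged -0.015 ± 0.10 (SD 0.18), and 3 of its 7 sgRNAs lay above 0. All of its ratios lay between -0.25 and 0.21, and none of its sgRNAs had a p under 0.05. *PDE7B* minus *PDE7A* was 0.17 ± 0.13 (approximate 95% interval -0.091 to 0.43, which includes 0).

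*PDE8B*, a high-affinity cAMP enzyme, held the widest range of the family with a mean near 0, 0.012 ± 0.11 (SD 0.40). PDE8B_1 stood at 34.9 CPM in PRMT5 high and 59.0 CPM in PRMT5 low, a ratio of 0.74 ± 0.18 (CB2's beta-binomial test, p = 0.00364, adjusted p = 0.362). PDE8B_5 went the other way, from 68.6 CPM to 44.5 CPM, a ratio of -0.61 ± 0.20 (CB2's beta-binomial test, p = 0.0164). These 2 sgRNAs, picked as the ends of the range, lay 1.35 ± 0.27 apart. The remaining 5 had ratios between -0.13 and 0.094. Among them PDE8B_4 was the most abundant phosphodiesterase sgRNA, at 313 CPM in PRMT5 high and 334 CPM in PRMT5 low, with a ratio of 0.094 ± 0.15. *PDE8B* spans 77086715 to 77428256 on chromosome 5 (GRCh38).

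*PDE8A*, its paralog, had a mean of 0.055 ± 0.11 (SD 0.32) and a median over sgRNAs of -0.10. The positive mean rested on PDE8A_6, with 116 CPM in PRMT5 high and 164 CPM in PRMT5 low, a ratio of 0.49 ± 0.23 (CB2's beta-binomial test, p = 0.0340). Without it the mean was -0.017. The lowest ratio, -0.31, belonged to PDE8A_4. *PDE8A* minus *PDE8B* was 0.044 ± 0.16 (approximate 95% interval -0.27 to 0.36).

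The 4 *PDE4* genes, the family blocked by rolipram and roflumilast, had means from -0.0026 to 0.17. *PDE4B* had the highest mean among the cAMP-selective genes, 0.17 ± 0.14 (SD 0.23), with 5 of 7 sgRNAs above 0. It ranked 83 of 1420 genes toward PRMT5 low (Fisher's method, p = 0.335). It was also the scarcest of the 14 genes, with a mean over sgRNAs of 57.7 CPM in PRMT5 high and 63.0 CPM in PRMT5 low. Its highest ratio, 0.57, came from PDE4B_5 at 17.5 and 26.5 CPM, and none of its sgRNAs had a p under 0.05. *PDE4D*, the longest of these genes at 1553091 bases, had a mean of 0.063 ± 0.13 (SD 0.21), and *PDE4A* had 0.017 ± 0.094 (SD 0.29). *PDE4C* had a mean of -0.0026 ± 0.12 (SD 0.25). The single sgRNA of these 4 genes with a p under 0.05 was PDE4C_2, an abundant one with 262 CPM in PRMT5 high and 205 CPM in PRMT5 low, a ratio of -0.35 ± 0.17 (CB2's beta-binomial test, p = 0.0425). In the other direction PDE4C_5 had 41.8 and 56.4 CPM and a ratio of 0.42. *PDE4B* minus *PDE4C*, the highest and lowest of the family, was 0.18 ± 0.18.

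Among the dual-specificity genes, *PDE3A* and *PDE3B* had nearly equal means. Both encode cAMP-hydrolysing enzymes that cGMP inhibits, known from platelets and heart for *PDE3A* and from fat cells for *PDE3B*. *PDE3A* had a mean of 0.095 ± 0.099 (SD 0.20) and *PDE3B* of 0.099 ± 0.16 (SD 0.31), each with 5 of 7 sgRNAs above 0. Their difference was 0.0047 ± 0.19, with an approximate 95% interval of -0.37 to 0.38, which leaves room for a difference larger than the means themselves. Each had 1 sgRNA with a p under 0.05. PDE3A_3 stood at 68.4 CPM in PRMT5 high and 85.4 CPM in PRMT5 low, a ratio of 0.32 ± 0.086 (CB2's beta-binomial test, p = 0.00727), and PDE3B_4 at 117 and 172 CPM, a ratio of 0.55 ± 0.14 (CB2's beta-binomial test, p = 0.00740). Without these sgRNAs the means were 0.058 and 0.024.

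*PDE11A* and *PDE10A*, the latter known for its expression in the striatum, lay on opposite sides of 0. *PDE11A* had a mean of 0.13 ± 0.077 (SD 0.28), with p = 0.0578 toward PRMT5 low by Fisher's method. PDE11A_3 stood at 91.7 CPM in PRMT5 high and 145 CPM in PRMT5 low, a ratio of 0.66 ± 0.14 (CB2's beta-binomial test, p = 0.00381, adjusted p = 0.371). Without it the mean was 0.037, and the next sgRNA, PDE11A_5, had 100.03 and 122 CPM and a ratio of 0.29. *PDE10A* had a mean of -0.095 ± 0.13 (SD 0.39), which rested on PDE10A_6, with 16.8 CPM in PRMT5 high and 8.80 CPM in PRMT5 low and a ratio of -0.86 ± 0.77. Without that sgRNA the mean was 0.032. PDE10A_1 was level, with 274 CPM in both populations. *PDE11A* minus *PDE10A* was 0.22 ± 0.15 (approximate 95% interval -0.076 to 0.52).

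Compared by substrate, the cGMP-selective genes had a mean of 0.12 ± 0.092 over 2 genes, the dual-specificity genes of 0.056 ± 0.061 over 4, and the cAMP-selective genes of 0.015 ± 0.040 over 8. In the cGMP-selective class 11 of 14 sgRNAs were more abundant in PRMT5 low cells, against 28 of 56 in the cAMP-selective class and 17 of 28 in the dual class. The cGMP-selective mean exceeded the cAMP-selective mean by 0.11 ± 0.10, with an approximate 95% interval of -0.086 to 0.31 that includes 0 and covers the library error only. The order also rested on 1 gene, since without *PDE6C* the difference was -0.016 ± 0.12 and without *PDE5A* it was 0.24 ± 0.15. With each sgRNA weighted by its library error, an alternative chosen after seeing the data, the difference was 0.20 ± 0.070, and its approximate 95% interval lay above 0. The weighted mean was 0.35 for *PDE6C* and 0.057 for *PDE5A*. Such weights count the sgRNAs with the smallest variances most. The weighted difference was not recomputed without either gene. The dual genes exceeded the cAMP-selective genes by 0.042 ± 0.073 (approximate 95% interval -0.10 to 0.18), and the cGMP-selective genes exceeded the dual genes by 0.068 ± 0.11 (approximate 95% interval -0.15 to 0.28). Within the cAMP-selective class the mean was 0.063 ± 0.061 for PDE4, 0.033 ± 0.080 for PDE8 and -0.10 ± 0.067 for PDE7. In PDE7 5 of 14 sgRNAs and in PDE8 6 of 14 had a ratio above 0, against 17 of 28 in PDE4.

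Taken as single sgRNAs, 7 of the 98 had a p under 0.05 toward PRMT5 low (7.14%, against 5.82% of all sgRNAs) and 4 toward PRMT5 high (4.08%, against 6.03%), near the background in both directions. Of the 500 control sgRNAs, 45 met the same limit toward PRMT5 low and 33 toward PRMT5 high. The 4 phosphodiesterase sgRNAs toward PRMT5 high all targeted cAMP-selective genes, *PDE7A* with 2, *PDE8B* and *PDE4C*. They were 7.14% of the 56 sgRNAs of this class, near the 6.03% of all sgRNAs. The cGMP-selective and dual classes held only 14 and 28 sgRNAs. The 7 toward PRMT5 low belonged to 7 genes of all classes, *PDE3A*, *PDE3B*, *PDE6C*, *PDE7A*, *PDE8A*, *PDE8B* and *PDE11A*. None passed an adjusted p of 0.10, which 15 sgRNAs of the library passed toward PRMT5 high and 19 toward PRMT5 low. For 5 of these 11 sgRNAs (PDE3A_3, PDE3B_4, PDE7A_5, PDE8B_1 and PDE11A_3) the variance in PRMT5 low sat at the floor of the authors' method, which allows for read counting but for no further spread between libraries. That was so in 1 population or the other for 22 of the 98. Against the control sgRNAs, 5 phosphodiesterase ratios lay below the 5th percentile of -0.39 and 8 above the 95th of 0.43. The share of all sgRNAs past these percentiles was not computed. Control sgRNAs were also more abundant, with a median of 123 CPM in both populations against 83.3 and 87.7 CPM for phosphodiesterase sgRNAs. These counts therefore cannot be read as an excess. Control ratios had a smaller SD, 0.25, than the ratios of all targeting sgRNAs (0.29) and of the phosphodiesterase sgRNAs (0.29). Abundance was not matched in this comparison. Among the most abundant sgRNAs of the whole library, from 109 CPM upward, the SD was 0.21.

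The phosphodiesterase sgRNAs were about as abundant as the rest of the library. Their median was 83.3 CPM in PRMT5 high and 87.7 CPM in PRMT5 low, against 85.0 and 84.9 CPM over all targeting sgRNAs and 123 CPM in both populations for control sgRNAs. Gene means ran from 57.7 CPM for *PDE4B* to 129 CPM for *PDE8B* in PRMT5 high cells. Scarcer sgRNAs tended to larger ratios of either sign, with a Spearman rho of -0.34 between abundance and the size of the ratio across the 98 sgRNAs, which share libraries and read depth. The SD of the ratio was 0.37 among the 33 scarcest, up to 63.3 CPM, 0.20 among the middle 32 and 0.27 among the 33 most abundant, from 106 CPM upward. Over all sgRNAs the rho was -0.25. Split the same way, their SD was 0.38 among the scarcest, 0.26 in the middle and 0.21 among the most abundant.

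Beyond the phosphodiesterases, 45 library genes were chosen as a cyclic nucleotide list. It held cyclases, kinases, exporters, nitric oxide synthases and Gs-coupled receptors, and no gene in it passed the limits of p and mean used above. The median of the gene means in this list was 0.028. At an unadjusted p under 0.05 by Fisher's method, 3 of the 45 lay toward PRMT5 low and 2 toward PRMT5 high, against 8.59% and 9.30% of all genes. Of the 3 kinases, *PRKX*, a relative of the protein kinase A catalytic subunits, had a mean of 0.092 ± 0.072 (p = 0.00595, adjusted p = 0.299 by Fisher's method), and *PRKG2*, a cGMP-dependent protein kinase, of 0.080 ± 0.064 (p = 0.0471 by Fisher's method). Of the 6 cyclases, *GUCY1B3*, the beta subunit of the nitric oxide-sensitive guanylyl cyclase, had a mean of -0.067 ± 0.092 (p = 0.0229 toward PRMT5 high by Fisher's method).

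The 31 Gs-coupled receptors, which activate adenylyl cyclase, had a median mean of 0.046, with 17 above 0. *LHCGR*, the luteinizing hormone receptor, had a mean of -0.083 ± 0.088 (p = 0.00570 toward PRMT5 high by Fisher's method, adjusted p = 0.285), and *MC1R*, a melanocortin receptor, of 0.086 ± 0.16 (p = 0.0344 toward PRMT5 low by Fisher's method). None of the 3 nitric oxide synthases or of the exporters *ABCC4* and *ABCC5* had a p under 0.05. The means of *PRKX*, *PRKG2*, *GUCY1B3*, *LHCGR* and *MC1R* lay between -0.083 and 0.092, short of the limit of 0.25. Each of them had between 1 and 3 sgRNAs with a p under 0.05, of which at least 1 was at the floor of the variance.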

How the data were processed

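The screen compared 4 PRMT5 high with 4 PRMT5 low libraries of sgRNAs amplified from genomic DNA. Reads were aligned by the authors to the sgRNA sequences and summarised per population with CB2. FastQC and hg38 are named in the submitters' processing notes, and no tool version was given in the sources used here. The deposited CPM values are the authors' means over 4 libraries. The deposited fraction of each sgRNA is its estimated share of a population's reads, with the authors' variance. Columns of fold changes, scores and p-values, which hold the authors' comparisons, and the gene table were not used.

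CB2's test was recomputed for all 10429 sgRNAs as the difference of fractions over its standard error, with Welch-Satterthwaite degrees of freedom, so its p-values are approximate. One-sided p-values were combined per gene by Fisher's method for 1420 genes, each with Benjamini-Hochberg adjustment over all features (Python 3.11.15, SciPy 1.17.1). The code was tested on simulated data. Standard errors of log2 ratios follow from the deposited variances by the delta method, are treated as independent between sgRNAs, and gave intervals of ± 1.96 errors. Read totals of 16166859 for PRMT5 high and 19117396 for PRMT5 low were recovered from the smallest variances. PCR reads are not independent molecules. Gene positions come from RefSeq for GRCh38.p14, which matched all 14 genes.

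All 14 phosphodiesterase genes are described. Values in the list of 45 cyclic nucleotide genes are given for those with a p under 0.05. Members and lists were chosen with earlier results of these data known. The alternatives were Stouffer's method, other limits, CPM + 5 and CPM + 10, a minimum of 20 CPM, centring on control sgRNAs, medians, other substrate classes, leaving out genes, sgRNAs or smallest variances and, added after seeing the data, weighting by library error and a p limit of 0.001 toward PRMT5 low.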

Additional observations from a re-analysis of the deposited data

How the results depend on the processing

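No paired analysis was possible because the files hold only values pooled over the 4 libraries of a population, and for the same reason no library could be left out. The count of phosphodiesterase genes past the legend's limits (p under 0.01, mean beyond 0.25) was 0, and it was 1 (*PDE6C*) with Stouffer's method and 1 (*PDE6C*) with a p limit of 0.05. It stayed at 0 with no limit on the mean, with an adjusted p under 0.10, with the methods' p limit of 0.001 toward PRMT5 low by Fisher's or Stouffer's method (both added after seeing the data), and with each other scale, filter, centring, median or weight tried. The count of 11 sgRNAs with a one-sided p under 0.05 was 11 with at least 20 CPM, 6 without sgRNAs at the smallest variance (of 76 left) and 0 at an adjusted p under 0.10. The cGMP-selective minus cAMP-selective difference of 0.11 was 0.24 without *PDE5A* and -0.016 without *PDE6C*, and between 0.064 and 0.20 under the other alternatives, the highest (0.20 ± 0.070) with weights by library error, which were added after seeing the data. Of 84 gene means under other scales, filters, centring, medians or weights, 5 moved by more than the library error. These were *PDE7A* (-0.31 as a median, -0.095 weighted), *PDE8A* (-0.10 as a median), *PDE3A* (0.20 weighted) and *PDE3B* (0.29 weighted). The sign changed in 6 of the 84, in *PDE10A* (0.032 with at least 20 CPM), *PDE4D* (-0.030 weighted), *PDE5A* (0.014 as a median, 0.057 weighted), *PDE8A* and *PDE8B* (-0.011 as a median). Of 98 means with 1 sgRNA left out, 4 moved by more than the library error, in *PDE7A*, *PDE8B* (-0.11 without PDE8B_1) and *PDE11A*. *PDE7A* without PDE7A_1 (-0.30) and *PDE6C* without PDE6C_7 (0.28) met the legend's limits, and over all such omissions the mean of *PDE6C* ran from 0.20 to 0.28 with p from 0.00994 to 0.179 by Fisher's method. The cause of these changes was not tested. The error of a gene's mean, 0.12 at the median, limits what could be seen.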
